A study of Mus musculus with 8 samples.

Results

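The comparison described here set the inguinal mammary gland of gonadectomized mice 18 h and 24 h after 17β-estradiol (E2) against that of gonadectomized mice given vehicle. It was made up by sample title of 4 of the 8 arrays in the series: the arrays titled 18 h and 24 h after E2, and both vehicle arrays (n = 2 against 2). The mice were virgin and 12 to 13 weeks old, and every group, vehicle included, had been gonadectomized, which leaves them without ovarian estrogen. E2 or vehicle was injected under the skin. The dose is not stated because the labels give it in conflicting units, and the sources used here give no strain. The other 4 arrays, 1 each at 1, 3, 6 and 12 h after E2, are quoted only as values beside these results, and they share the vehicle arrays with them. Both vehicle arrays are labelled 24 h, so the 18 h array has no vehicle array of its own time, and E2 and the time of day cannot be told apart there. The times are those of the sample titles, whereas the description of every sample reads 24 h, which is not settled. Per the labels, every mouse in a group gave tissue. The sources used here do not say how many mice each array represents or whether RNA was pooled.

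E2 acts through the estrogen receptor, a ligand-activated transcription factor made from Esr1 in the mammary epithelium and its stroma. In the epithelium the receptor is found in a subset of luminal cells, the hormone-sensing cells, which also carry the progesterone receptor and signal to their neighbours. Other luminal cells are progenitors of the milk-secreting cells, and they carry antimicrobial and mucosal defense genes. Epithelium is a small share of the virgin gland, which is mostly fat and connective tissue, surrounds the inguinal lymph node and lies against body wall muscle. Genes of the epithelium were therefore described apart from those of muscle and of lymphocytes.

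Of 10916 genes tested, 2007 (18.4%) lay above the intensity of both vehicle arrays on both E2 arrays and 3739 (34.3%) lay below. Outside the vehicle range is used here in that sense. If the 4 arrays were exchangeable, 33.3% of genes would be expected outside it, on 1 side or the other. For a single gene, lying outside the range is therefore no sign of a change by itself. A margin of at least 1.2-fold on both E2 arrays was left by 37 genes above (0.339%) and by 53 below (0.486%), and a margin of at least 1.5-fold by 13 above (0.119%) and 0 below. By category, the 37 genes above comprised 19 of the muscle lists, 6 of the epithelial lists, 2 of the lipid synthesis lists and 10 of no list. The 53 below comprised 14 of the lymphocyte lists, 3 of other lists and 36 of no list, with 0 of the muscle, epithelial and lipid lists. The limma fit over these genes called 0 at an adjusted p below 0.05, with 0.0557 as its smallest adjusted p. At an unadjusted p below 0.05 there were 431 genes higher (3.95%) and 1369 lower (12.5%), where 546 in all would be expected by chance. No gene named below passed this test, and adjusted p in what follows is that of limma with Benjamini-Hochberg adjustment over all genes tested. The errors given are standard errors from the same fit, and log2 differences are the mean of the 18 h and 24 h arrays minus the mean of the vehicle arrays.

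**Figure D1:**
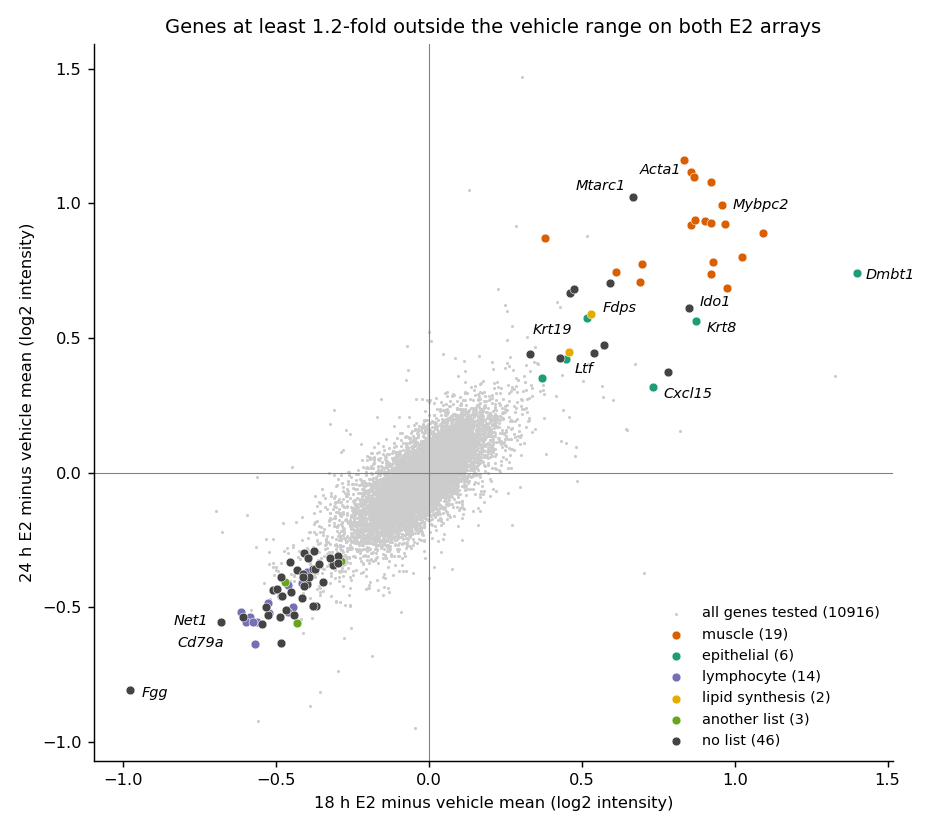
Log2 difference of the 18 h E2 array (horizontal axis) and of the 24 h E2 array (vertical axis) from the mean of the vehicle arrays, for 10916 genes (grey points); coloured points are the 37 genes at least 1.2-fold above and the 53 at least 1.2-fold below the vehicle range on both E2 arrays, by category. Both axes share the vehicle mean. The 19 muscle genes lie at the upper right, Dmbt1 and Krt8 lie farthest out of the 6 epithelial genes, and Fgg lies farthest below.

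The margin between the vehicle arrays bears on all of these counts. Between the vehicle arrays the log2 differences of all genes had an SD of 0.13, with 518 genes (4.75%) at least 1.2-fold apart, whereas between the 18 h and 24 h arrays the SD was 0.0901, with 118 genes (1.08%) that far apart. Vehicle 1 lay nearer to the E2 arrays (SD 0.114 to 18 h and 0.112 to 24 h) than vehicle 2 did (0.172 and 0.183). With vehicle 1 left out, limma called 2068 genes, 664 higher and 1404 lower, and with vehicle 2 left out it called 105, 47 higher and 58 lower. With either E2 array left out it called 0. In each of these fits 1 arm was a single array, assumed to vary as the pair that was left, so without a vehicle array the spread came from the 18 h and 24 h arrays alone, which were closer than the vehicle pair. The genes at least 1.2-fold outside the vehicle range numbered 237 above and 501 below without vehicle 1, and 63 above and 75 below without vehicle 2. Quantile normalization of the arrays turned the split of genes outside the vehicle range to 3175 above and 2415 below, and that of unadjusted p below 0.05 to 896 higher and 793 lower.

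Summed markers of skeletal muscle and of lymphocytes differed between the groups. The summed intensity of 5 defining skeletal muscle markers (Acta1, Ckm, Tnnt3, Mylpf and Myh4) was 4751 to 6200 on the vehicle arrays and 10501 to 10730 on the E2 arrays. That of the 3 B lymphocyte markers measured (Cd79a, Cd79b and Ms4a1) was 4373 to 5660 on the vehicle arrays and 3474 to 3503 on the E2 arrays. The 3 T lymphocyte markers (Cd3d, Cd3e and Cd3g) summed to 2223 to 2568 and 1886 to 1975. Markers of adipocytes (Adipoq and Fabp4) summed to 30982 to 34099 on vehicle arrays and 31177 to 34216 on E2 arrays, and the groups overlapped. They did not overlap for the other types. That is no sign of a change by itself, since 18.4% of all genes lay above the vehicle range and 34.3% below. Endothelial markers summed to 3952 to 4048 on vehicle arrays and 3546 to 3799 on E2 arrays. Macrophage markers summed to 12058 to 12231 and 11096 to 11625, and fibroblast markers to 41857 to 42487 and 41209 to 41398. Myoepithelial markers, 2 of 3 above the level filter, summed to 1035.5 to 1105 and 1233 to 1288. Luminal epithelial markers (Krt8, Krt18, Krt19, Epcam and Cdh1) summed to 5559 and 5922 on vehicle arrays against 7777 and 7199 on E2 arrays. Epithelial markers were thus measured on all 4 arrays. The lowest intensity of a muscle, lymphocyte, adipocyte or luminal defining marker on these 4 arrays was 290, and none was at 0. Limma was also fitted with a covariate, the mean of the tested genes of the 4 muscle lists (muscle marker mean). That fit called 26 genes, 1 of them epithelial and 0 of them muscle. With the mean of the tested B and T lymphocyte list genes (lymphocyte marker mean) it called 4, 1 epithelial and 0 lymphocyte. Because each covariate was made from those same genes, their absence from the calls was built in. Both covariates moved with the comparison over only 4 arrays. These fits can therefore barely separate them from E2, and no conclusion is drawn from the calls.

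Among epithelial genes, the luminal keratins and a set of mucosal defense genes lay above the vehicle range, while of the genes of hormone-sensing cells only Esr1 lay outside it on both E2 arrays, and below it. Krt8 was 1.64-fold higher, Krt19 1.46-fold higher and Dmbt1 2.1-fold higher than vehicle. Of 32 luminal and pan-epithelial genes tested (of 40 listed), 19 lay above the vehicle range and 1 below, with a median log2 difference of 0.13. Over all genes tested, 18.4% lay above and 34.3% below, with a median of -0.02. Of those 32 genes, 3 lay at least 1.2-fold above: Krt8, Krt19 and Tspan8. In bulk tissue, fewer cells of a type and less RNA per cell cannot be told apart, and the same holds for more of either.

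Krt8, the type II keratin of simple epithelium, had intensities of 1149 and 1120 on the vehicle arrays and 2076 and 1675 at 18 h and 24 h. Both E2 arrays lay well above both vehicle arrays, which themselves were close together. The log2 difference was 0.72 ± 0.094 (SE, n = 2 against 2; adjusted p = 0.0557), and all 3 of its probe sets lay above the vehicle range, with differences of 0.61 to 0.75 for the other probe sets. At the earlier times its intensity was 1070.1, 779, 1124 and 2941 at 1, 3, 6 and 12 h, so the 12 h array stood higher than either later one and the 3 h array was the lowest of the 8. Krt18, the type I keratin that pairs with Krt8 in filaments, measured 1399 and 1625 on vehicle arrays and 2045 and 1772 on E2 arrays, with 2635 at 12 h. The groups did not overlap, but the 24 h array was close to vehicle 2 (0.34 ± 0.0909; adjusted p = 0.193). Krt19, a keratin of ductal epithelium, measured 876 and 1106 on vehicle arrays and 1409 and 1467 on E2 arrays. For this gene the 24 h array was the highest of all 8 (0.55 ± 0.101; adjusted p = 0.12).

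The upstream promoter sequence is shown for Krt8 and for Ltf because these are the epithelial genes past 1.2-fold whose 250 bases before the start held a GGTCA, the core letters of each arm of an estrogen response element (searched as GGTCA on both strands, in capitals). The Krt8 window is chr15:102004343-102004592 on the minus strand and the Ltf window chr9:111019042-111019291 on the plus strand, both from RefSeq on GRCm38.p6 and written 5′ to 3′ on the gene's strand.
Krt8: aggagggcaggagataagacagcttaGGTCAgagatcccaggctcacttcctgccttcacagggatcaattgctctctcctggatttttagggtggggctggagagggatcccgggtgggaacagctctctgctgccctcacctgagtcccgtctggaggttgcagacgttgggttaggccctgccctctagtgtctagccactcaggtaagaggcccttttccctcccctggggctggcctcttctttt
Ltf: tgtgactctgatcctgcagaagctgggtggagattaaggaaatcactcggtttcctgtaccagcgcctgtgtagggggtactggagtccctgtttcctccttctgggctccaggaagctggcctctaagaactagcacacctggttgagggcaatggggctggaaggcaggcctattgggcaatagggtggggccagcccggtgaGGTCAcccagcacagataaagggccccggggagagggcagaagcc
The motif begins at position -224 in Krt8 and at -45 in Ltf, counted from the transcription start. Of the 6 epithelial genes past 1.2-fold, 4 had a window in the table and 2 of these held GGTCA, against 8 of 14 muscle genes with a window and 35.2% of all 32851 windows. The full element, an inverted repeat of GGTCA with a gap of 3 bases, was in 0 of the 4 and in 0.0639% of all windows. A match describes the letters of the window and nothing more.

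Other genes of the luminal list lay above the vehicle range by less. Muc1, a membrane mucin of the apical surface, measured 312 and 286 on vehicle arrays and 384 and 369 on E2 arrays (0.33 ± 0.0676; adjusted p = 0.152). Tspan8, a tetraspanin, measured 217 and 192 against 264 and 261 (0.36 ± 0.0782), close to the level filter. Of its 5 probe sets 3 lay above the range. The differences of those not taken, all below the level filter, ran from 0.10 to 0.20. The tight junction genes Cldn3 and Cldn7 lay at 0.20 and 0.23, the epithelial transcription factor Elf3 at 0.23 and the membrane protease St14 at 0.24, and for each the lower E2 array was above the higher vehicle array. Epcam, an adhesion protein found throughout epithelium, was nearer the vehicle range: 1747 and 1615 on vehicle arrays and 1801 and 1870 on E2 arrays (0.13). Cdh1, the epithelial cadherin, lay within the range at 387 and 457 against 446 and 415, and the groups overlapped. The epithelial genes thus did not differ from vehicle by a common amount. Of 9 myoepithelial genes tested, 5 lay above the vehicle range and 0 below (median 0.11, and 0.041 to 0.18 with 1 array left out, lowest without the 18 h array), including Krt5, a keratin of basal cells, and Oxtr, the oxytocin receptor, both at 0.26. Oxtr measured 581 and 486 on vehicle arrays and 624 and 652 on E2 arrays. The shares among all genes were 18.4% above the range and 34.3% below.

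**Figure D2:**
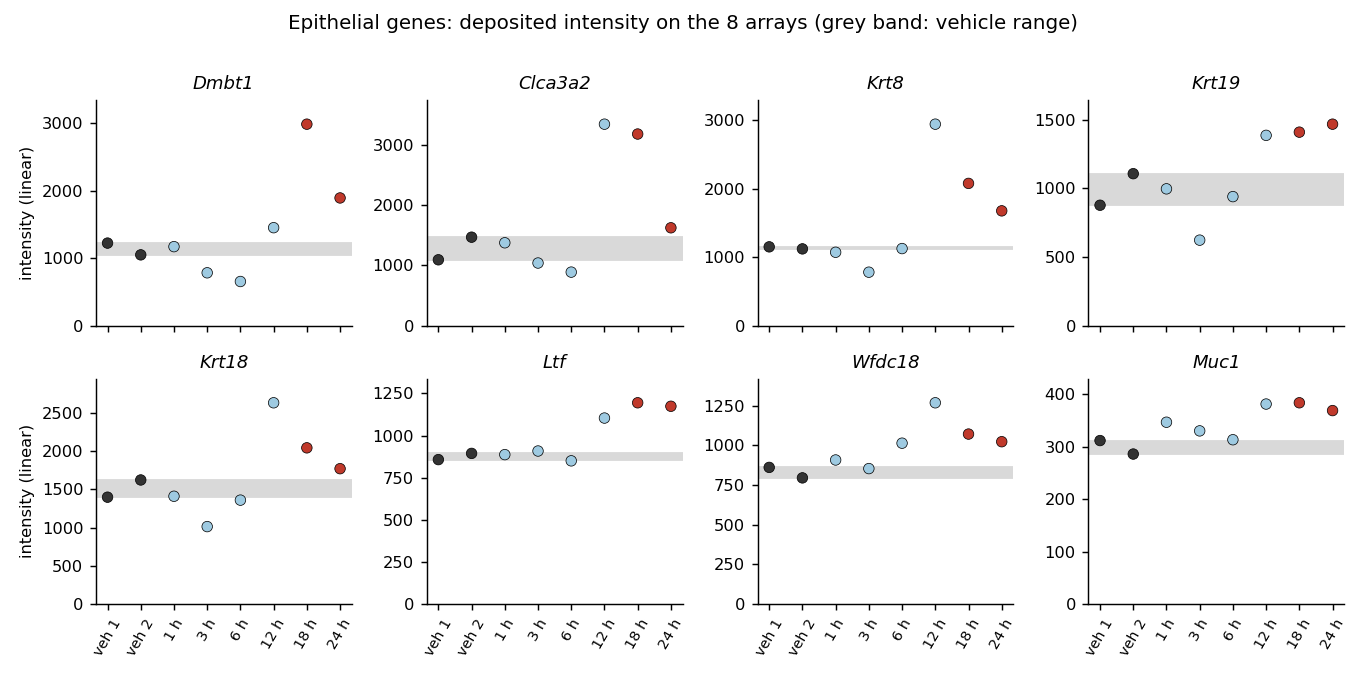
Deposited intensity (linear, vertical axis from 0) of 8 epithelial genes on the 8 arrays (horizontal axis, vehicle arrays black, 1 to 12 h E2 light blue, 18 h and 24 h E2 red); 1 point is 1 array and the grey band spans the vehicle arrays. Both red points lie above the band in each panel, and the 12 h point of Krt8, Krt18, Clca3a2 and Wfdc18 lies above both of them.

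Genes of mucosal and antimicrobial defense ranged most widely of the epithelial lists, from -0.17 to 1.07. Of 14 tested (of 24 listed), 9 lay above the vehicle range and 1 below, with a median of 0.24. Among all genes, 18.4% lay above and 34.3% below. The median was 0.15 without the 18 h array and 0.16 with no level filter. Dmbt1, a secreted scavenger receptor glycoprotein of mucosal surfaces, measured 1221 and 1047 on vehicle arrays, 2982 at 18 h and 1890 at 24 h. Both E2 arrays were above the vehicle range, but the 18 h array was far above the 24 h one, and the fit had a wide error (1.07 ± 0.185; adjusted p = 0.103). Earlier, Dmbt1 measured 1169, 781, 652 and 1449 at 1, 3, 6 and 12 h. Clca3a2, which belongs to the calcium-activated chloride channel regulators, measured 1095 and 1471 on vehicle arrays, 3189 at 18 h and 1628 at 24 h. Its 24 h value was just above vehicle 2, and the 12 h array had 3353 (0.84 ± 0.277; adjusted p = 0.231). Its relative Clca3a1 showed the same order, with 461 and 524 on vehicle arrays, 868 at 18 h and 547 at 24 h. Probe sets of such close relatives may share transcripts.

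Ltf, which encodes the iron-binding milk protein lactoferrin and is a known estrogen-responsive gene of the uterus, had the smallest error of the 6 epithelial genes past 1.2-fold. Its intensities were 858 and 894 on vehicle arrays and 1195 and 1174 on E2 arrays. The arrays of each group agreed closely and the groups did not overlap (0.44 ± 0.0522, 1.35-fold; adjusted p = 0.0557). It measured 887, 909, 850.35 and 1104 at 1, 3, 6 and 12 h, so the first 3 times were within or next to the vehicle range. Cxcl15, a chemokine of epithelium, measured 318 and 339 on vehicle arrays and 545 and 410 on E2 arrays, after 1152 at 6 h and 966 at 12 h (0.53 ± 0.122; adjusted p = 0.173). Lcn2, which sequesters bacterial siderophores, measured 905 and 1032 on vehicle arrays and 1327 and 1117 on E2 arrays (0.33). Cp, the copper-carrying ferroxidase ceruloplasmin, was the only one of the 14 below the range, at -0.17.

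Of 12 secretory and milk genes tested, 5 lay above the vehicle range and 1 below, beside 18.4% and 34.3% of all genes. Their median was 0.13, and 0.068 to 0.17 with 1 array left out, lowest without vehicle 2. Wfdc18, a small secreted protein with a protease inhibitor fold, measured 861 and 795 on vehicle arrays and 1071 and 1023 on E2 arrays, with 1268 at 12 h. The groups did not overlap (0.34 ± 0.0603; adjusted p = 0.107). The caseins Csn3 and Csn1s1 lay at 0.23 and 0.13, with Csn3 at 1793 and 1921 on vehicle arrays, 2418 at 18 h and 1949 at 24 h. Lalba, the milk whey protein alpha-lactalbumin, and Btn1a1, a protein of the milk fat globule, lay above the range at 18 h and within it at 24 h. Glycam1, a mucin made by milk-secreting cells and also by the high endothelial venules of lymph nodes, measured 4060.2 and 5031 on vehicle arrays and 3297 and 3422 on E2 arrays (-0.43 ± 0.0948; adjusted p = 0.173). It was the only gene of this list below the range. Of the B lymphocyte list 18 of 19 genes lay there, beside 34.3% of all genes. Which cells gave the Glycam1 signal was not tested.

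Of 12 hormone-sensing luminal genes tested, 0 lay above the vehicle range and 1 below, beside 18.4% and 34.3% of all genes. The list median was 0.02 (-0.01 with arrays centred on their median). The gene below was Esr1, at 1551 and 1505 on vehicle arrays and 1257 and 1206 on E2 arrays. The values within each group were close and the groups did not overlap (-0.31 ± 0.0524; adjusted p = 0.103). Of its 3 probe sets 2 lay below the range. The others had differences of -0.43, from a probe set below the level filter, and -0.09, from one above it. Its lowest value was 770 at 6 h. Pgr, the progesterone receptor, measured 285 and 366 on vehicle arrays, 504 at 18 h and 361 at 24 h, so that the 24 h array was back within the range after 1745 at 3 h (0.40 ± 0.164; adjusted p = 0.288). Foxa1, which opens chromatin for the estrogen receptor, measured 1368 and 1444 on vehicle arrays and 1472 and 1388 on E2 arrays, after 227 at 3 h. Gata3, a transcription factor of luminal identity, lay at 299 and 316 against 314 and 285. Cited1, a coactivator in hormone-sensing cells, lay at 595 and 529 against 567 and 611, after 139 at 6 h. For these 3 genes the groups overlapped. Krt4, a keratin of stratified epithelium that stood at 1798 at 3 h, measured 183 and 158 on vehicle arrays and 180 and 208 on E2 arrays, all under the mean required by the level filter (211), which it passed through the earlier arrays.

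In a wider list of estrogen response genes the counts were near those among all genes (18.4% above and 34.3% below). Of 21 tested, 3 lay above the vehicle range (Ltf, Krt19 and Tff1) and 8 below, with a median of -0.05 that ran from -0.13 without the 18 h array to 0.005 without the 24 h array. Igf1, a growth factor that stroma supplies to the epithelium, measured 4063 and 4292 on vehicle arrays and 3351 and 3402 on E2 arrays, with 4772 at 1 h and 3313 at 6 h. The groups did not overlap (-0.31 ± 0.054; adjusted p = 0.104). Its binding proteins Igfbp5 and Igfbp3 lay at -0.29 and -0.39. Egr1, an immediate early zinc finger transcription factor, measured 1684 and 1717 on vehicle arrays and 1228 and 1282 on E2 arrays, after 2765 at 3 h. The late arrays were the lowest of the 8 (-0.44 ± 0.0518; adjusted p = 0.0557). Myc, which drives growth genes, measured 244 and 249.85 against 213 and 224 (-0.18), and Ccnd1, the G1 cyclin, lay within the range. Greb1, an estrogen receptor target, was below the level filter, and Areg was not analysed here.

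**Figure D3:**
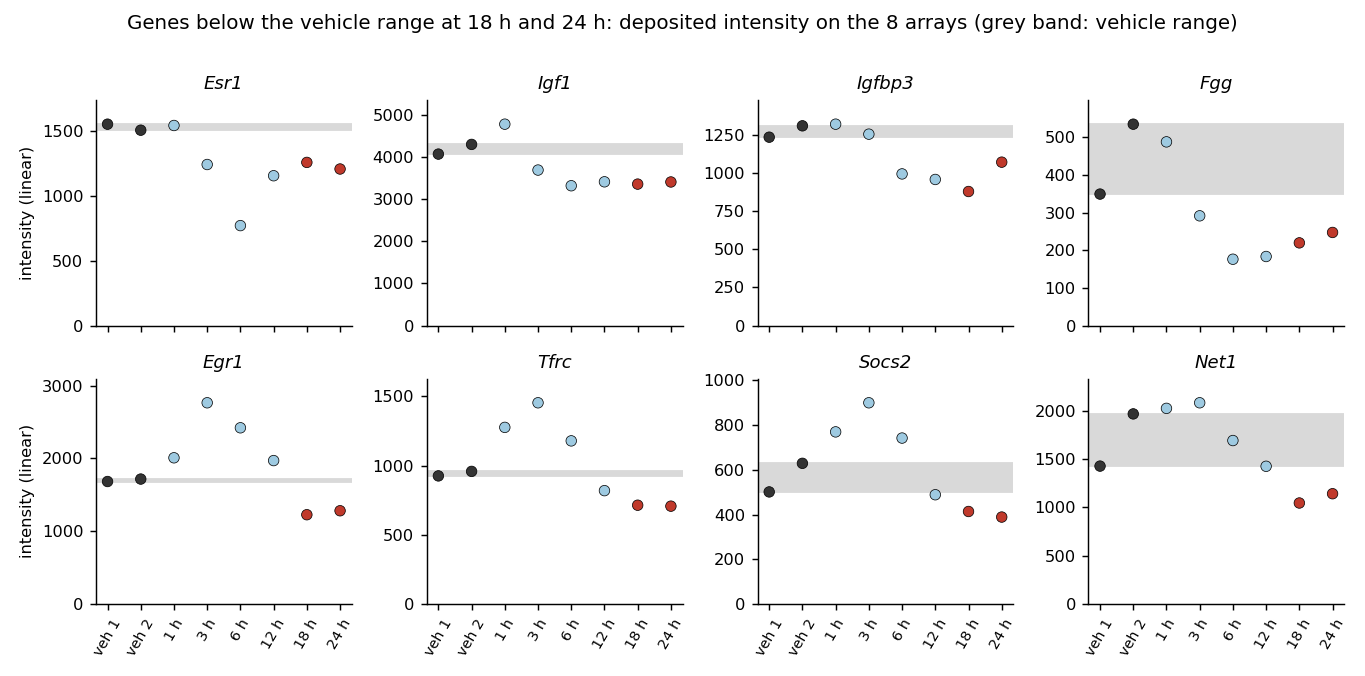
Deposited intensity (linear, vertical axis from 0) on the 8 arrays (horizontal axis, vehicle black, 1 to 12 h E2 light blue, 18 h and 24 h E2 red) of 8 genes below the vehicle range at 18 h and 24 h; 1 point is 1 array and the grey band spans the vehicle arrays. Egr1, Tfrc and Socs2 have their highest point at 3 h and both red points under the band, and Esr1 and Fgg have their lowest point at 6 h.

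Skeletal muscle genes were the largest named category at least 1.2-fold above the vehicle range. With no margin, 37 genes of the epithelial lists lay above it. Of 14 fast contractile genes tested (of 19 listed), 14 lay above the range, 13 of them by at least 1.2-fold, with a median log2 difference of 0.91, while the same genes had a median difference of 0.40 between vehicle 1 and vehicle 2. Of 36 muscle genes tested in all 4 muscle lists (of 66 listed), 30 lay above the range and 1 below (median 0.69). Among all genes, 18.4% lay above and 34.3% below, and 0.339% lay at least 1.2-fold above. Only genes above the level filter entered, and a gene could pass it through the arrays on which muscle was high. Mybpc2, a myosin-binding protein of fast fibres, left the widest margin of any gene named: 319 and 260.39 on vehicle arrays and 559 and 574 on E2 arrays. The groups were far apart and the E2 arrays agreed closely (0.98 ± 0.0936, 1.97-fold; adjusted p = 0.0557). On the other E2 arrays it measured 575, 515, 665 and 327 at 1, 3, 6 and 12 h, so the 12 h array was next to vehicle 1. Acta1, the actin of skeletal muscle, measured 2646 and 2062 on vehicle arrays, 4260.3 and 4998 at 18 h and 24 h, and 2927 at 12 h (0.98 ± 0.12). Ckm, the muscle creatine kinase, measured 1696 and 1231 against 3080 and 2681, and its other probe set had a smaller difference of 0.23.

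The troponins of fast fibres, which hold the calcium switch of contraction, lay at 0.92 for Tnnt3, 0.90 for Tnni2 and 0.95 for Tnnc2. The fast myosin light chains Myl1 and Mylpf lay at 0.92 and 1.00, the fast heavy chain Myh4 at 0.83 and the giant sarcomere proteins Neb and Ttn at 1.00 and 0.99. The calcium pump Atp2a1, the release channel Ryr1 and the store protein Casq1 lay at 0.89, 0.68 and 0.70. Of 4 slow-fibre contractile genes tested, 1 lay above the vehicle range and 1 below (median 0.10). The slow gene below was Tpm3, at -0.07. Beside the 18.4% above and 34.3% below among all genes, counts from 4 genes do not stand out. The slow list kept too few genes above the filter for a comparison with the fast list. Mb, the oxygen store myoglobin, measured 196 and 137 on vehicle arrays, 203 at 18 h and 454 at 24 h, so the 18 h array was just above vehicle 1 (0.89 ± 0.334; adjusted p = 0.262).

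Promoter windows of 2 muscle genes are shown because both hold CAGCTG, an E-box bound by myogenic factors (a palindrome, in capitals). The Mylpf window is chr7:127211358-127211607 and the Myh4 window chr11:67237562-67237811, both on the plus strand of GRCm38.p6, from RefSeq, written 5′ to 3′ as the 250 bases before the start.
Mylpf: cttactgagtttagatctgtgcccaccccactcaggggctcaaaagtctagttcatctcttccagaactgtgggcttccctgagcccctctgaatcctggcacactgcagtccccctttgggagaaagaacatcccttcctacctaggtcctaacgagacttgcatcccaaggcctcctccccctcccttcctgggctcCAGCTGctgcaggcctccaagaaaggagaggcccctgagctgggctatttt
Myh4: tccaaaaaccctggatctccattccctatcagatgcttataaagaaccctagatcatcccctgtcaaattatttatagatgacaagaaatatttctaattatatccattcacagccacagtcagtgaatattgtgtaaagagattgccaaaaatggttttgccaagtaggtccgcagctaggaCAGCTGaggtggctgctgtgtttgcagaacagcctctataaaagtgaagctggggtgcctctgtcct
The E-box begins at position -51 in Mylpf and at -67 in Myh4. Of the 19 muscle genes past 1.2-fold, 14 had a window in the table and 8 of these held CAGCTG, against 13% of all windows. Of the 4 epithelial genes with a window, 0 held it. As above, a match is a description of the sequence.

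The muscle and epithelial genes past 1.2-fold had their highest medians on different arrays. The 19 muscle genes past 1.2-fold had a median of 0.88, 0.69, 1.23 and 0.20 above the vehicle mean at 1, 3, 6 and 12 h, and of 0.90 and 0.92 at 18 h and 24 h. The 6 epithelial genes had medians of 0.02, -0.24, -0.03 and 0.43 at 1, 3, 6 and 12 h, and of 0.62 and 0.49 at 18 h and 24 h. At 12 h the muscle median was thus near that of vehicle 1 (0.19) while the epithelial median was above both vehicle arrays, although Tspan8, at 215, was within the range there. At 1, 3 and 6 h the muscle medians were above both vehicle arrays and the epithelial medians were at 0.02 or lower. All of these values use the same vehicle mean, and the genes were chosen at 18 h and 24 h, which favours those arrays. Over the 77 tested genes of all 5 epithelial lists the median was 0.12 at 12 h, 0.12 at 18 h and 0.11 at 24 h. Among E2 arrays the defense and secretory medians were highest at 12 h (0.36 and 0.38). Those of the luminal, myoepithelial and hormone-sensing lists were highest at 18 h or 24 h.

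**Figure D4:**
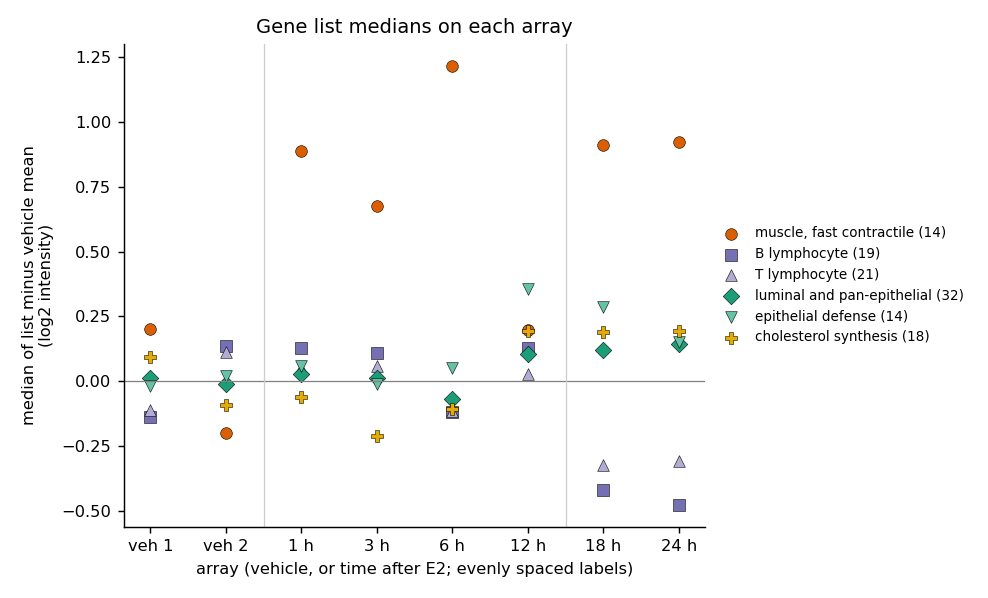
Median log2 difference from the vehicle mean (vertical axis) of 6 gene lists on each of the 8 arrays (horizontal axis, evenly spaced labels); 1 symbol is the median of the tested genes of 1 list on 1 array, with the number of genes in the legend. Fast muscle genes stand at 0.91 and 0.92 at 18 h and 24 h and at 0.20 on vehicle 1, and B and T lymphocyte genes are lowest at 18 h and 24 h.

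Lymphocyte genes were the largest named category below the vehicle range. Of 19 B lymphocyte genes tested (of 23 listed), 18 lay below and 0 above, 10 of them by at least 1.2-fold, with a median of -0.47, beside a median of -0.27 between vehicle 1 and vehicle 2. Of 21 T lymphocyte genes tested (of 28 listed), 18 lay below and 2 above (median -0.33, and -0.22 between the vehicle arrays). The shares among all genes were 34.3% below and 18.4% above, with 0.486% at least 1.2-fold below. Without vehicle 2 the medians were -0.28 for B and -0.19 for T lymphocyte genes, and without vehicle 1 they were -0.64 and -0.42. Cd79a, a signalling chain of the B cell receptor, measured 1748 and 2200 on vehicle arrays and 1328 and 1337 on E2 arrays. The E2 arrays were closer to each other than the vehicle arrays were, and the groups stood apart (-0.56 ± 0.0983; adjusted p = 0.104). On the earlier arrays it measured 2142, 2108, 1682 and 2213 at 1, 3, 6 and 12 h, so only the 6 h array was also below both vehicle arrays.

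Bcl11b, a transcription factor of T cell commitment, measured 528 and 603 on vehicle arrays and 368 and 395 on E2 arrays, the widest margin of the lymphocyte genes (-0.57 ± 0.0774; adjusted p = 0.0557). Fcer2a, the low affinity IgE receptor of B cells, measured 1059 and 1279 against 775 and 802 (-0.56 ± 0.0868; adjusted p = 0.0865). H2-Ob, which regulates antigen loading in B cells, lay at -0.60, the inhibitory receptor Btla at -0.58, and Ms4a1, the B cell antigen CD20, at -0.49. In the T cell receptor complex Cd3g lay at -0.50 and Cd3d at -0.42, whereas Cd3e was closer at 958 and 983 on vehicle arrays against 862 and 921 (-0.12). Genes of other lymphoid roles outside the lists, named after their values were seen, included Gimap8 at -0.45, a GTPase of lymphocyte survival, Rasgrp1 at -0.47, which activates Ras in T cells, and Gpr183 at -0.41, a receptor that positions B cells. Of 6 genes of natural killer and cytotoxic cells, 3 lay below and 1 above (median -0.11), and of 22 macrophage and myeloid genes 6 lay below and 0 above (median -0.03), fewer below than the 34.3% of all genes.

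Genes of lipid synthesis lay mostly above the vehicle range, on a background in which the vehicle arrays themselves differed. Of 18 cholesterol synthesis genes tested, 12 lay above and 1 below (median 0.20), beside a median of 0.19 between vehicle 1 and vehicle 2. Of 26 fatty acid and triglyceride synthesis genes, 20 lay above and 3 below (median 0.21, and 0.22 between the vehicle arrays). The shares among all genes were 18.4% above and 34.3% below. Fdps, which makes farnesyl pyrophosphate, measured 728 and 538 on vehicle arrays and 905 and 942 on E2 arrays. The E2 arrays agreed, and vehicle 1 was closer to them (0.56 ± 0.124; adjusted p = 0.173). Its other probe set, below the level filter, had a difference of 0.06. Cyp51, the lanosterol demethylase, measured 284 and 225 against 347 and 344 (0.45), and Sqle, the squalene epoxidase, 603 and 476 against 749.6 and 706 (0.44). Of the 3 Cyp51 probe sets 2 lay above the range. Those not taken, below the level filter, had differences of 0.09 and 0.27. In fatty acid synthesis Acly, which supplies acetyl-CoA, lay at 0.33, the citrate carrier Slc25a1 at 0.32, the lipogenic regulator Thrsp at 0.30 and the carbohydrate-responsive factor Mlxipl at 0.46. Without vehicle 2 the medians were 0.05 for cholesterol and 0.11 for fatty acid synthesis, and without vehicle 1 both were 0.31. Of 17 adipocyte identity genes 2 lay above and 2 below (median -0.02), both under the shares among all genes, and Lep, the hormone leptin, lay at -0.30.

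Ribosome biogenesis genes, which build the translation machinery, lay low: of 24 tested, 16 lay below the vehicle range and 1 above (median -0.11). Nop58, a core protein of box C/D ribonucleoproteins, measured 387 and 435 on vehicle arrays and 304 and 279 on E2 arrays (-0.49 ± 0.0788; adjusted p = 0.0903). The nucleolar proteins Nolc1, Fbl and Npm1 lay at -0.31, -0.22 and -0.19. Of 30 proliferation genes, 7 lay above and 8 below (median -0.02), and Mki67, a marker of cycling cells, measured 455 and 496 against 407 and 389 (-0.26). Of 33 oxidative phosphorylation genes, 20 lay above and 1 below (median 0.07), with no gene past 1.2-fold, while 11 of 18 interferon response genes lay below and 1 above (median -0.06). Of 18 endothelial genes 9 lay below and 2 above (median -0.07), and of 25 fibroblast and matrix genes 3 lay below and 6 above (median 0.01). Endoplasmic reticulum folding genes (25 tested, 0 above, 8 below), circadian clock genes (14 tested, 1 above, 3 below) and glucocorticoid response genes (15 tested, 3 above, 2 below) had medians of -0.05, -0.06 and 0.05. Beside the 18.4% above and 34.3% below among all genes, the counts below in the folding, clock, glucocorticoid, proliferation and fibroblast lists were no larger than the share of all genes. Small medians depended on the scaling: those of the macrophage and proliferation lists were 0.02 and 0.01 under quantile normalization, and that of the fibroblast list was -0.02 with arrays centred on their median. Without vehicle 1 the glucocorticoid median was -0.10.

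**Figure D5:**
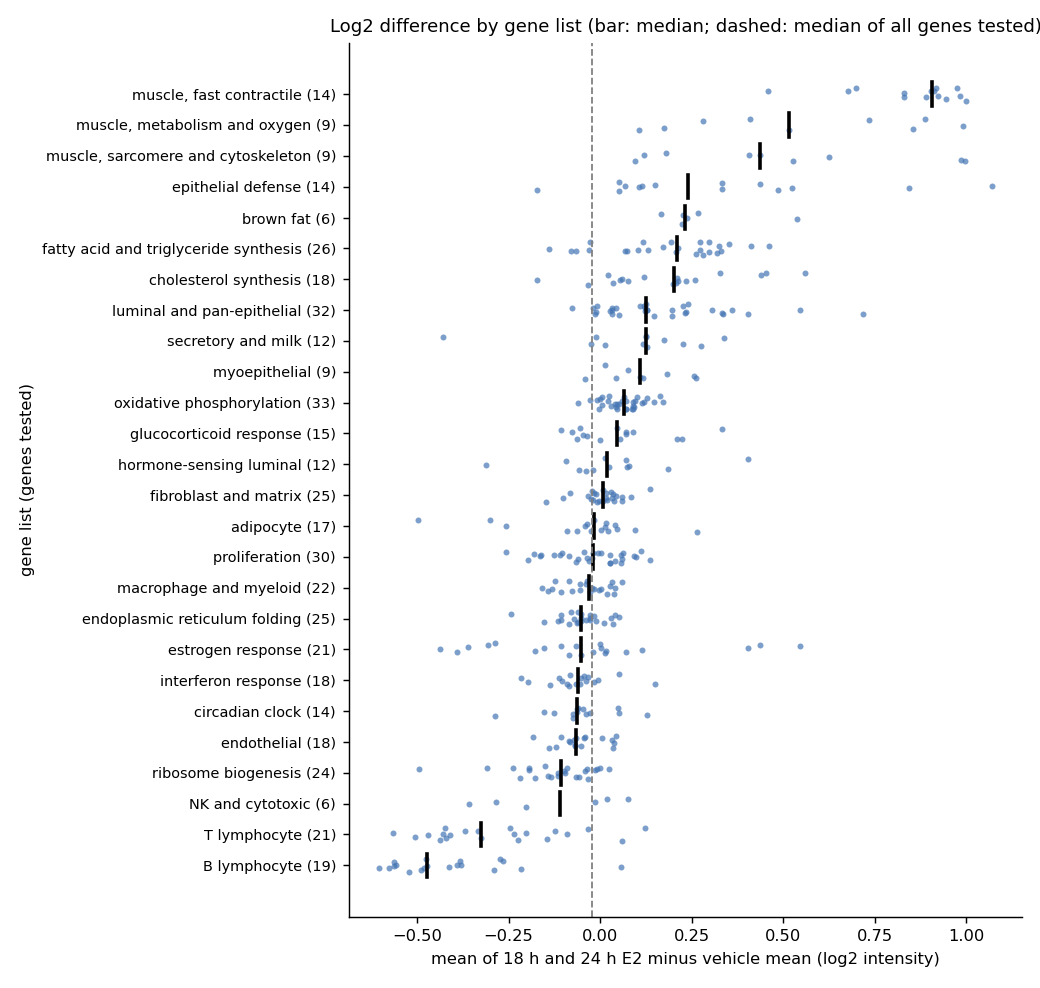
Log2 difference of the 18 h and 24 h E2 arrays from vehicle (horizontal axis) for the tested genes of 26 gene lists (rows, with the number of genes); 1 point is 1 gene, the black bar is the list's median and the dashed line the median of all genes tested (-0.02). Fast muscle genes have the highest median (0.91) and B lymphocyte genes the lowest (-0.47) of the lists drawn, and a gene may stand in more than 1 list.

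Several genes outside the lists lay far from the vehicle range. Ido1, which degrades tryptophan, measured 543 and 616 on vehicle arrays and 1043 and 883 on E2 arrays, while all 4 earlier E2 arrays had 382 to 536, below the vehicle arrays (0.73 ± 0.0925; adjusted p = 0.0557). Mtarc1, a mitochondrial amidoxime reductase, measured 363 and 249 against 478 and 612 (0.85 ± 0.176). Lrg1, a secreted leucine-rich glycoprotein of inflammation, measured 4142 and 3924 on vehicle arrays, 6928 at 18 h and 5223 at 24 h, after 8249 at 12 h (0.58). Pla1a, a phospholipase, measured 1183 and 1133 against 1558 and 1555 (0.43 ± 0.0514; adjusted p = 0.0557). Tpm1, a tropomyosin of striated and smooth muscle that stood in no list, measured 1626 and 1509 against 2331 and 2175 (0.52 ± 0.0615; adjusted p = 0.0557). Its 12 h value, 1761, was near vehicle, as for the listed muscle genes. Of the 4 Tpm1 probe sets, 2 lay above the range and 1 below. The differences of those not taken ran from -0.08 to 0.38.

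Below the range, Fgg, the fibrinogen gamma chain, was farthest: 349 and 535 on vehicle arrays and 220 and 247 on E2 arrays, with 176 at 6 h and 183 at 12 h. The groups did not overlap although the vehicle arrays were far apart (-0.89 ± 0.174; adjusted p = 0.138). Tfrc, the transferrin receptor, measured 926 and 958 on vehicle arrays and 714 and 707 on E2 arrays, after 1454 at 3 h (-0.41 ± 0.0518; adjusted p = 0.0557). Its other probe sets had smaller differences, -0.15 and -0.05. Max, the dimerization partner of Myc, measured 469.5 and 462 against 337 and 327 (-0.49 ± 0.0569; adjusted p = 0.0557). Vapb, an endoplasmic reticulum tether, lay at -0.43, but its other probe sets lay at -0.09 and -0.08. Net1, an exchange factor for RhoA, measured 1427 and 1966 on vehicle arrays and 1045 and 1141 on E2 arrays (-0.62 ± 0.133), and Socs2, a feedback inhibitor of growth hormone signalling, 501 and 629 against 414 and 389 (-0.48 ± 0.102), after 899.67 at 3 h. The genes Ido1, Mtarc1, Lrg1, Pla1a, Net1 and Socs2 stood in no list, and those of them outside the rule for naming genes were chosen after their values were seen.

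The 18 h and 24 h arrays were close but not the same, and with 1 array each their differences have no replicate check. Alone, the 18 h array left the vehicle range by at least 1.2-fold for 69 genes above and 150 below, and the 24 h array for 71 above and 137 below. For 0 genes did the 2 arrays leave the range by that much on opposite sides. They were at least 1.5-fold apart for 8 genes. At 18 h the epithelial genes Clca3a2 (0.97 on the log2 scale), Clca3a1 (0.67) and Dmbt1 (0.66) were higher than at 24 h, as were Nnat, an imprinted proteolipid (0.90), and Ucp1, the uncoupling protein of brown fat (1.08). Ucp1 measured 1054 and 632 on vehicle arrays, 1329 at 18 h and 631 at 24 h, so the spread between the vehicle arrays was of the same order. Mb (-1.17), the small heat shock protein Hspb6 (-0.92) and the protease inhibitor Serpinb2 (-0.63) were lower at 18 h than at 24 h. Because both times entered as 1 group, these genes had wide errors in the fit.

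With 2 arrays against 2, an exact two-sided permutation test of a single gene cannot give a p below 0.333, so single genes were tested only in the fit across all genes. The labels do not say whether arrays came from separate mice or pools, so the p-values describe spread among these arrays only, and it may be technical. When all probe sets of a gene were averaged in place of taking the brightest, the differences of Tpm1 (0.19), Ttn (0.46), Tnni2 (0.55), Mb (0.51), Mtarc1 (0.49), Igfbp5 (-0.17), Socs2 (-0.21), Rasgrp1 (-0.23), Gpr183 (-0.16) and Epcam (0.08) were smaller by over 1.5 times, besides those of genes whose probe sets are given above.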

How the data were processed

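Per the labels, total RNA of mammary tissue was labelled with biotin and hybridised to Affymetrix arrays. GCOS 1.0 and RMA are named in the submitters' processing notes, in no stated role or order. The deposited values are intensities on a linear scale for 45101 probe sets, with medians of 173.9 to 180.49 on the 8 arrays, so the authors had brought the arrays to a common level. No normalization was added and log2 was taken. Probe sets with 1 symbol (34945) were kept and 64 controls left out, as were 932 with several symbols and 9160 with none. Of those kept, 34741 matched RefSeq (GRCm38.p6) by Entrez identifier. For each of 18193 genes the probe set of highest mean was taken, and genes whose mean reached the 40th percentile (log2 7.72, an intensity of 211) were tested, leaving 10916. No probe's level was set against another's, and the number of arrays limits the precision.

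The 18 h and 24 h arrays formed 1 group, so change between them counts as spread. They were compared with both vehicle arrays in limma 3.58.1 (R 4.3.3; statmod 1.5.0 for the robust alternative) with a mean-variance trend, two-sided, with Benjamini-Hochberg adjustment. The fit was tested on simulated data. No set test was run. Lists and members were chosen with earlier results of these data known. Genes were named if among the 15 farthest above or below the vehicle range, among the 3 smallest p-values of a direction, among the farthest 6 of a list (12 for luminal, secretory, defense, muscle and lymphocyte lists), or in a fixed set of hormone response and marker genes. Alternatives covered the filter, normalization, probe set choice, variance model, arrays in the fit, marker covariates, margin and each array left out.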

Additional observations from a re-analysis of the deposited data

How the results depend on the processing

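The count of genes outside the vehicle range was 4860 above with no level filter and 1048 above with the filter at the 60th percentile, where more or fewer genes were tested. Quantile normalization gave 3175 above and 2415 below. At 1.2-fold there were 57 above with no filter, 18 above with the muscle and lymphocyte lists left out and 35 below under quantile normalization. At 1.1-fold there were 142 above and 422 below, and at 1.5-fold 13 and 0. Leaving out 1 array at a time gave 2948 to 3828 above, and at 1.2-fold 63 to 237 above and 75 to 501 below, since fewer arrays had to be passed. The limma count, 0 in the comparison as designed, was 25 with no filter (15 muscle, 2 epithelial), 17 with arrays centred on their median (15 muscle, 0 epithelial), 26 with the muscle marker mean and 4 with the lymphocyte marker mean as covariate (1 epithelial in each), and 0 to 2068 with 1 array left out. The causes of these shifts were not tested. The other 8 limma alternatives that kept all 4 arrays called 0 genes. The luminal median was 0.18 under quantile normalization, 0.10 with centred arrays, 0.0848 with the mean of probe sets and 0.12 to 0.15 with 1 array left out. The defense median was 0.16 with no filter, 0.38 at the 60th percentile and 0.15 to 0.29 with 1 array left out. Leave-out ranges were 0.71 to 1.11 for fast muscle, -0.64 to -0.28 for B lymphocyte, -0.42 to -0.19 for T lymphocyte and 0.0496 to 0.31 for cholesterol synthesis medians. Genes that changed sign all lay close to vehicle or had a wide spread. With 1 array left out their log2 differences ran from -0.18 to 0.0488 for Ccnd1, -0.0856 to 0.15 for Cdh1, -0.0158 to 0.15 for Cited1, -0.018 to 0.0663 for Foxa1, -0.11 to 0.031 for Gata3 and -0.37 to 0.70 for Ucp1. Foxa1 was at -0.00074 with centred arrays. Of the gene differences under alternatives, 657 kept direction and side of the threshold, 158 passed it and 11 changed sign. No paired analysis was possible because the E2 arrays carry no replicate numbers.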
